A study of Mus musculus with 568 samples.

Results

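Stra8, Gm4969 (the gene that encodes MEIOSIN), Zglp1, Dmrt1, Dmrtb1, Ythdc2 and Tex14 are 7 mouse genes whose products act around the switch of germ cells from mitosis to meiosis. They were chosen by name for that role. All 7 are among the 15718 genes of the single-cell count table, and 6 of them are among the 16335 genes of the bulk table. Stra8 was not analysed in the bulk libraries here.

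STRA8 is induced by retinoic acid in fetal ovaries and, as a transcription factor, acts with its partner MEIOSIN at the promoters of meiotic genes. ZGLP1, a GATA-like nuclear factor, acts downstream of BMP signalling to set the oogenic programme. DMRT1 is a DM-domain factor that promotes Stra8 transcription in the fetal ovary, and its relative DMRTB1 (DMRT6) is known from the passage of spermatogonia to meiosis. YTHDC2 is an RNA helicase that binds MEIOC and holds germ cells in the meiotic programme. TEX14 keeps the bridges between sister germ cells open.

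All samples come from XRep, a hybrid female mouse embryonic stem cell (ESC) line of 129S1/SvImJ and CAST/EiJ origin. In this line a truncated Tsix directs inactivation to the 129S1/SvImJ X chromosome (Xmus). That X carries GFP in Hprt (XGFP), and the CAST/EiJ X carries tdTomato (XTomato). All groups, ESCs included, also carry rtTA in Rosa26 and piggyBac transgenes for Prdm1, Prdm14 and Tfap2c that doxycycline switches on. Endogenous and transgenic transcripts of these 3 factors were not separated here. Bulk total RNA was sequenced from 4 libraries each of ESCs, epiblast-like cells (EpiLCs), and primordial germ cell-like cells (PGCLCs). PGCLCs were induced for 5 days with doxycycline, sorted for SSEA1 and CD61, and split into XGFP+ and XGFP− cells. Single cells came from reconstituted ovaries (rOvaries), in which PGCLCs were aggregated for 6 days with somatic cells of E13.5 female gonads and mesonephroi. XTomato+ cells were then sorted by their XGFP signal. XGFP− PGCLCs gave XGFPhigh, XGFPintermediate and XGFPlow cells (424 wells), and XGFP+ PGCLCs gave XGFP+ constitutive cells (94 wells). 24 ESCs and 10 empty wells were processed as well.

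Gene positions follow GENCODE vM21 (mm10). Stra8 (ENSMUSG00000029848) spans chr6:34920163-34939344 on the plus strand and Gm4969 (ENSMUSG00000085601) chr7:19099046-19118368 on the minus strand. Zglp1 (ENSMUSG00000079681) spans chr9:21062393-21067093 on the minus strand, and 1003 of its 1088 exon bases are shared with Gm49373 on the same strand, so its counts are uncertain. Dmrt1 (ENSMUSG00000024837) spans chr19:25505618-25604329 on the plus strand and Dmrtb1 (ENSMUSG00000028610) chr4:107676290-107684230 on the minus strand. Tex14 (ENSMUSG00000010342) spans chr11:87405065-87555823 on the plus strand.

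Promoter windows of 250 bases before RefSeq start sites (GRCm38.p6) were at hand for 4 of the 7 genes, in 5 windows. They were searched on both strands for the E-box CACGTG, the letters GGCGGGA of an E2F6-type site, and the letters AGGTCA and GGTTCA of retinoic acid receptor sites. AGGTCA was in 14.02% of 32851 mouse promoters, GGCGGGA in 9.75%, GGTTCA in 8.85% and CACGTG in 6.02%. The stretches of 30 bases below show every match in these genes, 5′ to 3′ along the gene, with the matched letters in capitals.
Stra8, chr6:34920742-34920771, plus strand: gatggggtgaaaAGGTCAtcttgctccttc
Stra8, chr6:34920898-34920927, plus strand: gcctggggtaccAGGTCAgttttttacctg
Zglp1, chr9:21067199-21067228, minus strand: acagcgccccCACGTGACCTgcgccgcccg
Tex14, chr11:87404943-87404972, plus strand: ccccttgctttTCCCGCCctcgcgggggat

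The matches in Stra8 began 194 and 38 bases before its start site, and both were AGGTCA in the direction of the gene. GENCODE vM21 places the start of Stra8 before this RefSeq start site, so its whole window of 250 bases lies within the annotated gene and in annotated exon. The windows of Zglp1 and Tex14 lie outside these annotated genes, and 250 and 140 of their bases are annotated exon of other genes. In Zglp1 a CACGTG 125 bases before the start overlapped AGGTCA read on the other strand (TGACCT). Tex14 had GGCGGGA on the other strand, ending 105 bases before its start. The 2 windows of Dmrtb1 held none of the 4 motifs. The window at chr4:107683590-107683839 lies inside the annotated gene, and all its 250 bases are annotated exon. The Stra8 window had 5 CG dinucleotides, below the median of 6 over all promoters, and those of Zglp1 and Tex14 had 13 and 17. Those of Dmrtb1 had 21 (inside the gene) and 7. A match is a string of letters and not a measured binding site.

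Bulk libraries had 29.8 M to 46.5 M reads on genes. Labels number the 4 libraries of a group without naming a clone, and the study's text and legends differ on whether they are technical or biological replicates, so p values may be too small. Defining markers of ESCs and EpiLCs followed the labels. All 5 EpiLC markers were higher in EpiLCs than in ESCs, and 7 of 8 naive pluripotency markers were lower. Of 9 germ cell markers tested, 8 were higher in XGFP+ PGCLCs than in EpiLCs. In XGFP− PGCLCs 7 were higher and 1 was lower. The germ cell list holds Prdm1, Prdm14 and Tfap2c, which doxycycline switches on, and Itgb3 (CD61), used in the sort. Those genes do not test the PGCLC label. No label names separate cultures or sorts within an rOvary population. Each was therefore treated as 1 sample, and single-cell values are given without tests. After limits on genes, reads and mitochondrial share, 88 XGFP+ constitutive cells, 24 ESCs and 374 cells from XGFP− PGCLCs were kept. Of the last, 125 were XGFPhigh, and the others were XGFPintermediate and XGFPlow cells, with 7 more of the former. Median reads per cell were 354149 in XGFP+ constitutive cells, 636623 to 645474.5 in the other rOvary populations and 1103780 in ESCs. Dazl, the defining germ cell marker, had a read in 95.5%, 98.4%, 92.2% and 81.8% of XGFP+ constitutive, XGFPhigh, XGFPintermediate and XGFPlow cells and in 12.5% of ESCs. Empty wells had at most 242 reads and 0 reads of the 7 genes.

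Before rOvary culture, the bulk levels of the 6 genes followed different courses. Gm4969 and Dmrtb1 peaked in EpiLCs, Tex14 was highest in PGCLCs, Zglp1 was lowest in PGCLCs, and Dmrt1 and Ythdc2 moved within a narrower range. Per kilobase of exon, mean normalized counts in XGFP+ PGCLCs were 792 for Tex14, 207 for Dmrt1, 140 for Ythdc2, 29.4 for Zglp1, 4.89 for Gm4969 and 1.87 for Dmrtb1. In bulk samples, fewer cells of a type and less RNA per cell cannot be told apart. Overlap of libraries between groups is described per gene below, and its share over all genes was not counted.

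**Figure D1:**
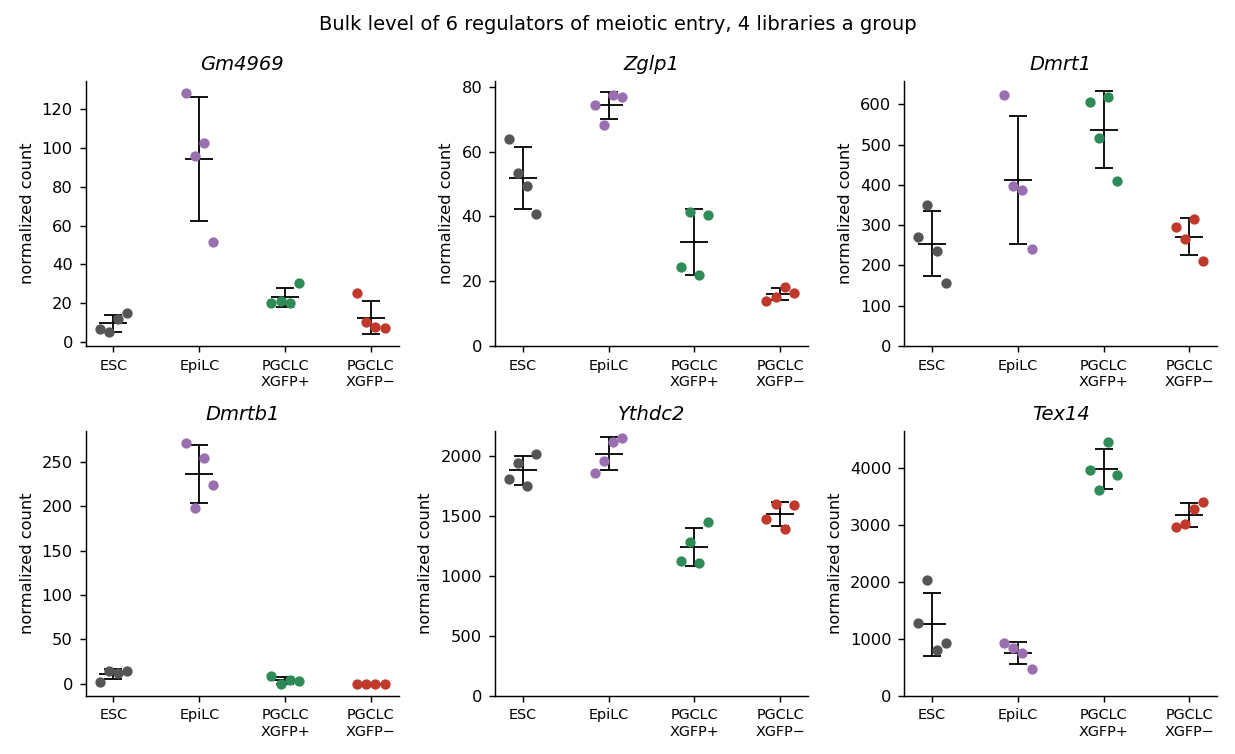
Normalized counts of the 6 genes in the bulk libraries, 1 panel per gene, with 4 libraries per group as points and the group mean ± SD as a bar. Dmrtb1 sits between 198 and 272 in EpiLCs and at 0 in all 4 XGFP− PGCLC libraries, and Tex14 is at 2962 or more in every PGCLC library.

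Gm4969 was low in ESCs, rose in EpiLCs and was low again in PGCLCs. The 4 ESC libraries had normalized counts of 6.74, 4.94, 11.6 and 14.7. In EpiLCs they were 128.3, 95.9, 102 and 51.3, so that the groups did not overlap. XGFP+ PGCLC libraries had 19.95, 21.3, 20.1 and 30.5, and XGFP− PGCLC libraries 25.1, 10.2, 7.69 and 7.21. Replicate 1 of XGFP− PGCLCs thus lay within the range of the XGFP+ libraries and the other three below it. Relative to ESCs, the EpiLC level was higher by a log2 fold change of 3.22 ± 0.38 (SE, limma, FDR 5.41e-07). It was then lower by −1.94 ± 0.38 in XGFP+ PGCLCs (limma, FDR 1.55e-04) and by −2.92 ± 0.38 in XGFP− PGCLCs (limma, FDR 1.25e-06), both against the same EpiLC libraries.

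Dmrtb1 showed the widest range of the 6 genes on the log2 scale. ESC libraries had normalized counts of 2.25, 13.8, 11.6 and 14.7, and EpiLC libraries 272, 198, 254 and 224. In XGFP+ PGCLCs the values were 9.07, 0, 3.83 and 2.69, and all 4 XGFP− PGCLC libraries were at 0. The EpiLC group therefore stood apart from every other group. It was higher than ESCs by 4.58 ± 0.56 on the log2 scale (SE, limma, FDR 7.59e-07), and XGFP+ PGCLCs were lower than EpiLCs by −6.01 ± 0.56 (limma, FDR 1.54e-08). With a floor of 3 reads per library for XGFP− PGCLCs, EpiLCs were at least 81.5-fold higher and ESCs at least 3.64-fold higher.

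Zglp1 was present at a low level in all groups and lowest in XGFP− PGCLCs. ESC libraries had normalized counts of 63.98, 53.4, 49.4 and 40.7, and EpiLC libraries 74.5, 68.2, 77.5 and 77.02. XGFP+ PGCLCs had 24.5, 41.3, 22.02 and 40.3, and XGFP− PGCLCs 13.9, 15.2, 18.3 and 16.5. Neither PGCLC group overlapped with EpiLCs, and the XGFP− group lay below all others. Relative to EpiLCs the change was −1.24 ± 0.22 in XGFP+ (limma, FDR 4.32e-05) and −2.15 ± 0.22 in XGFP− PGCLCs (limma, FDR 3.57e-08). Since Gm49373 covers most of its exons, these values may be split between the 2 genes.

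Dmrt1 had its highest mean in XGFP+ PGCLCs. ESC libraries had 272, 351, 236 and 157 normalized counts and EpiLC libraries 623, 397, 386 and 241. XGFP+ PGCLC libraries had 605, 517, 618 and 409, and XGFP− ones 295, 266, 315 and 210.3. The XGFP+ libraries lay above all ESC and XGFP− libraries and overlapped with EpiLCs. The increase from ESCs to XGFP+ PGCLCs was 1.12 ± 0.25 (limma, FDR 5.89e-04). This call was lost when any 1 of XGFP+ replicates 1, 2 and 3 or ESC replicates 1, 3 and 4 was left out, with a limma FDR from 0.00119 to 0.00303 and a log2 fold change from 0.91 to 1.17.

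Ythdc2 and Tex14 were the most abundant of the 6 genes by normalized count and moved in opposite directions. Ythdc2 (ENSMUSG00000034653, chromosome 18) had 1805, 1941, 1753 and 2019 normalized counts in ESCs and 1854, 1956, 2114 and 2149.8 in EpiLCs. XGFP+ PGCLC libraries had 1124, 1285, 1107 and 1448, and XGFP− ones 1474, 1597, 1389 and 1593. Both PGCLC groups lay below the ESC and EpiLC libraries, by −0.71 ± 0.08 in XGFP+ (limma, FDR 3.68e-07) and −0.42 ± 0.08 in XGFP− PGCLCs (limma, FDR 1.74e-04) against EpiLCs. Tex14, the bridge protein, went up instead. ESC libraries had 1276, 2029, 802 and 923 and EpiLC libraries 919, 843, 746 and 472. XGFP+ PGCLC libraries had 3967, 3605, 4451 and 3869, and XGFP− ones 2962, 3017, 3271 and 3404. No PGCLC library overlapped with ESCs or EpiLCs, and the XGFP+ libraries lay above the XGFP− libraries. Against EpiLCs the log2 fold change was 2.45 ± 0.22 in XGFP+ (limma, FDR 9.83e-09) and 2.13 ± 0.22 in XGFP− PGCLCs (limma, FDR 5.7e-08).

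Counted over comparisons, 2 of 6 genes passed FDR 0.001 between EpiLCs and ESCs, where 47.8% of 16281 tested genes did. Both were higher, as were 24.9% of genes, and 22.9% were lower. 5 of 6 passed between XGFP+ PGCLCs and EpiLCs, where 57.3% of genes did. Of these 4 were lower and 1 higher, against 29.5% and 27.8% of genes. Between XGFP− PGCLCs and EpiLCs 5 of 6 passed, where 61.9% of genes did, again with 4 lower and 1 higher (31.9% and 29.9% of genes). Relative to ESCs, 3 of 6 passed in XGFP+ PGCLCs (Dmrt1 and Tex14 higher, Ythdc2 lower), where 49.9% of genes did, 25% higher and 24.9% lower. In XGFP− PGCLCs it was also 3 of 6 (Tex14 higher, Zglp1 and Dmrtb1 lower), where 59.4% did, 29.8% higher and 29.6% lower. Only Tex14 was higher than in both ESCs and EpiLCs in both PGCLC groups at this threshold.

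**Figure D2:**
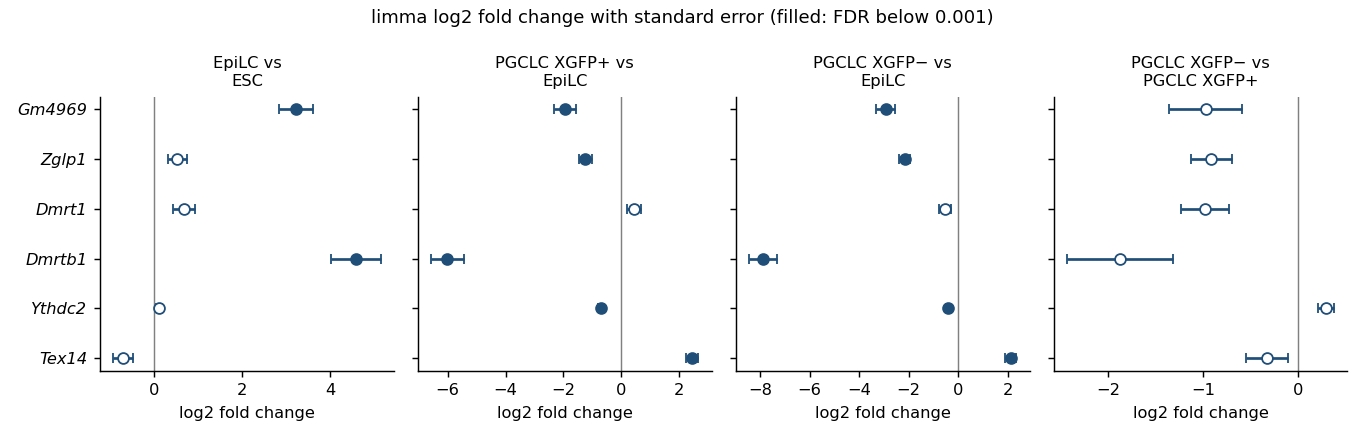
log2 fold change ± SE (limma) of the 6 genes in 4 comparisons, with filled points for FDR below 0.001 and a separate x range in each panel. Tex14 is the 1 gene to the right of 0 in both comparisons of PGCLCs with EpiLCs that passed. The fitted value of Dmrtb1 in XGFP− PGCLCs, which are at 0, depends on the pseudocount and is no bound.

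Between XGFP− and XGFP+ PGCLCs, which differ in the state of the reporter X, 0 of 6 genes passed FDR 0.001 in limma, where 23.8% of genes did, 11.3% higher and 12.5% lower. At FDR below 0.05 in limma 5 of 6 passed, as did 7914 of all 16281 genes. With edgeR 0 of 6 passed FDR 0.001, with 3974 of all 16281 genes called. Dmrt1 was lower in XGFP− cells by −0.98 ± 0.25 (limma, FDR 0.00326), Zglp1 by −0.91 ± 0.22 (limma, FDR 0.00192) and Gm4969 by −0.97 ± 0.38 (limma, FDR 0.0427). Ythdc2 was 0.29 ± 0.08 higher (limma, FDR 0.00733), and Tex14 differed by −0.33 ± 0.22 (limma, FDR 0.235). Dmrtb1, with 3 XGFP+ libraries above 0 and all XGFP− libraries at 0, had an FDR of 0.00984 in limma. For Dmrt1, Zglp1 and Tex14 the 4 libraries of one group did not overlap with those of the other. How many of all genes were separated in this way was not counted. Because libraries with the same replicate number deviated together in these groups, the fit with the replicate number as a block is given too. It called Dmrt1 (limma, FDR 7.8e-05) and Ythdc2 (limma, FDR 9.65e-04), and 4170 of all 16281 genes. DESeq2 on recovered reads called Dmrt1 (FDR 2.5e-04) and Dmrtb1 (FDR 1.5e-04), and 5051 of all 16281 genes.

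Other genes of the pathway were grouped in 4 lists, whose counts stand beside the shares of all genes called. These were 24.9% higher and 22.9% lower in EpiLCs against ESCs, 27.8% and 29.5% in XGFP+ PGCLCs against EpiLCs, 29.9% and 31.9% in XGFP− PGCLCs against EpiLCs, and 11.3% and 12.5% in XGFP− against XGFP+ PGCLCs. Of 19 upstream and partner factors tested, 9 were higher and 3 lower in EpiLCs than in ESCs (median log2 fold change 0.51, against 0.01 over all genes), led by Rbm46 (3.27), an RNA-binding protein needed for meiosis, and Msx1 (3.22), a target of BMP signalling. In XGFP+ PGCLCs against EpiLCs 6 were higher and 7 lower, with a median of −0.16. Nanos3 rose by 5.91 and Dazl, the RNA-binding protein that licenses germ cells for sexual differentiation, by 4.21, while Meioc, the partner of YTHDC2, fell by 3.63. In XGFP− PGCLCs against EpiLCs 8 were higher and 5 lower, with a median of 0.11, and the largest changes were those of Msx2 (5.30), Nanos3 (5.23), Meioc (−5.17) and Rbm46 (3.65). Between XGFP− and XGFP+ PGCLCs 5 were higher and 3 lower, among them Dazl (−4.05), the retinoic acid receptors Rarb (2.38) and Rarg (−1.61), and Meioc (−1.54).

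Of 26 meiotic prophase genes tested, 5 were higher and 6 lower in XGFP+ PGCLCs than in EpiLCs (median −0.07), and 5 were higher and 13 lower in XGFP− PGCLCs (median −0.94). Hormad1, an axis protein, and Majin, a telomere attachment protein, were lower in XGFP− PGCLCs than in EpiLCs by −5.14 and −4.96, and Meiob, a recombination protein, was higher by 4.36. In the direct comparison 8 of the 26 genes were lower and 2 higher in XGFP− than in XGFP+ PGCLCs (median −0.64), led by Hormad1 (−4.63), Majin (−4.35), Terb2 (−2.73) and Sycp2 (−2.29). Between EpiLCs and ESCs 7 were higher and 3 lower (median 0.18), with Sycp2 at 2.71, Spo11, which makes meiotic DNA breaks, at 2.69 and Tex15 at 2.42.

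Of 15 chromatin and DNA methylation factors known to repress germline genes before entry, 2 were higher and 5 lower in EpiLCs than in ESCs. In XGFP+ and XGFP− PGCLCs against EpiLCs 7 and 6 were higher and 4 and 6 lower. Uhrf1, which guides DNA methylation to new strands, fell in each step, by 0.80 from ESCs to EpiLCs, 1.94 from EpiLCs to XGFP+ and 2.81 from EpiLCs to XGFP− PGCLCs. Max, the partner of MGA in a repressor complex, was 1.06 and 1.32 higher in the PGCLC groups. Of 8 intercellular bridge genes, 4 were higher in XGFP+ PGCLCs than in EpiLCs, with Rbm44, a protein of germ cell bridges, at 2.00 and Cep55, the abscission protein that TEX14 binds, at 1.38. In XGFP− PGCLCs 2 were higher, Cep55 at 1.71 and Anln at 0.53, and Rbm44 was lower than in XGFP+ PGCLCs by −3.74.

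Across the 16 bulk libraries, which share 4 groups, the genes whose log2 levels ran most like each member were as follows. Tex14 was followed most closely by Acy3 (Pearson r 0.975), Krt222 (0.973) and Gm11457 (0.971), and Dmrtb1 by Tmem39b (0.977), Gemin5 (0.975) and ENSMUSG00000049507 (0.974). Zglp1 ran with Tet3 (0.968), Nkx2-4 (0.967) and Kif1b (0.966), and Ythdc2 with C1d (0.964), Cnih1 (0.958) and Nsun3 (0.952). Gm4969 ran with Etv1 (0.940), Far2 (0.933) and St8sia3 (0.929). For Dmrt1 the nearest genes, Ube2s (0.855), Pdlim1 (0.846) and Pmf1 (0.846), were less like it than those of the other 5 members.

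In rOvaries, Stra8 was the most abundant of the 7 genes in all 4 populations, and Gm4969, its partner gene, was found in far fewer cells. Levels are read counts scaled to the reads of each cell (counts per 1000000 reads, CPM) without unique molecular identifiers, and intervals are exact 95% binomial intervals on the share of cells with a read, which cover counting error only. A read in at least 10% of cells was found for 6 of 7 genes in XGFP+ constitutive cells, where 75.5% of all genes in the table passed. All 7 genes passed in XGFPhigh (75.4%), XGFPintermediate (74.4%) and XGFPlow cells (73%), and 4 of 7 in ESCs (72%). Per kilobase of exon the mean level in XGFPintermediate cells was 1625 CPM for Stra8, 23.9 for Tex14, 20.97 for Gm4969, 19.8 for Dmrt1, 12.5 for Zglp1, 6.82 for Dmrtb1 and 4.23 for Ythdc2.

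**Figure D3:**
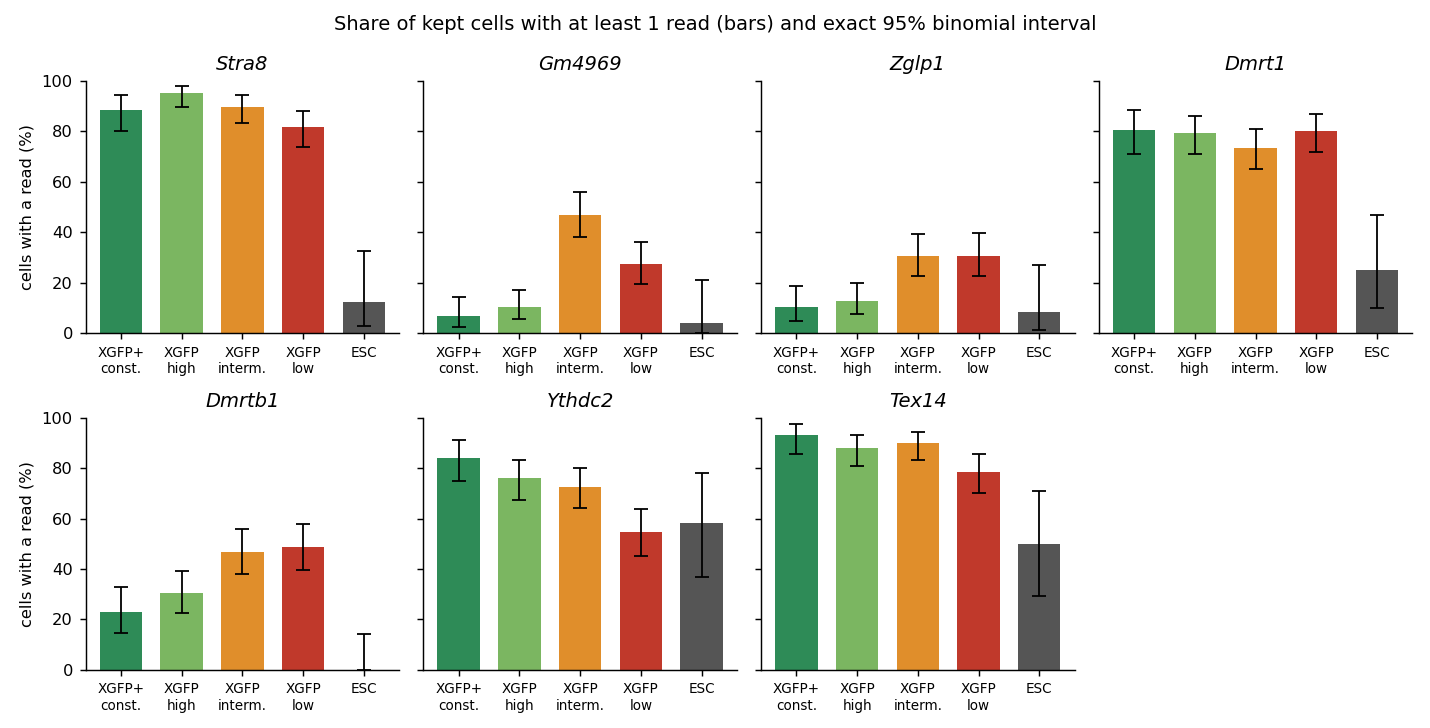
Share of kept cells with at least 1 read of each gene, in percent, with exact 95% binomial intervals as error bars, for the 4 rOvary populations and single ESCs. Gm4969 reaches 46.9% in XGFPintermediate and 27.3% in XGFPlow cells against 6.82% and 10.4% in XGFP+ constitutive and XGFPhigh cells, while Stra8 is above 80% in all 4 rOvary populations.

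Stra8 had a read in 88.6% (80.1–94.4) of XGFP+ constitutive, 95.2% (89.8–98.2) of XGFPhigh, 89.8% (83.3–94.5) of XGFPintermediate and 81.8% (73.8–88.2) of XGFPlow cells. Only 3 of 24 ESCs had one, at no more than 6.99 CPM. The level divided the populations more than the share did. The median was 488 CPM (quartiles 40.5 and 1475) in XGFP+ constitutive and 376 CPM (71.996 and 1162) in XGFPhigh cells. It was 2554 CPM (1070 and 4076) in XGFPintermediate and 2149 CPM (192 and 3661) in XGFPlow cells. Quartile ranges of XGFPhigh and XGFPintermediate cells overlapped only between 1070 and 1162 CPM. At least 1000 CPM of Stra8 was reached by 37.5% of XGFP+ constitutive, 30.4% of XGFPhigh, 77.3% of XGFPintermediate and 65.3% of XGFPlow cells. Among XGFPlow cells 22 had no read of Stra8 at all, and 19 of these had no read of Dazl either, while 79 were at 1000 CPM or more. Among cells above a limit on Dazl, the share with Stra8 was 94.7%, 96.6%, 97.4% and 98.9% in the 4 populations, so that the order of XGFPhigh and XGFPlow cells turned.

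Gm4969 had a read in 6 of 88 XGFP+ constitutive cells (6.82%, 2.54–14.3) and 13 of 125 XGFPhigh cells (10.4%, 5.65–17.1). It had a read in 60 XGFPintermediate cells (46.9%, 38.003–55.9) and 33 XGFPlow cells (27.3%, 19.6–36.1), with 1 of 24 ESCs as background (4.17%, 0.105–21.1). Over all kept cells, the interval of XGFPintermediate cells did not overlap with those of the other rOvary populations. Under the limit on Dazl, the intervals of XGFPintermediate and XGFPlow cells overlapped. In the XGFP+ constitutive and XGFPhigh cells the share was within the interval of ESCs. Summed reads were 4.68 CPM (exact Poisson interval 3.95–5.50) in XGFP+ constitutive and 28.7 CPM (27.6–29.9) in XGFPhigh cells, against 0.692 CPM (0.410–1.09) in ESCs. They came from 6, 13 and 1 cells, with 1 XGFP+ constitutive cell at 278 CPM. Amplified reads without molecular identifiers are not independent counts, so these intervals are too narrow. All ESCs were in flow-cell lane 4, which held no rOvary cells, so the summed values do not settle whether these populations exceeded ESCs. Levels were skewed, with a median of 0 in every population and a mean of 4.94, 27.5, 98.5 and 40.1 CPM in the same order. The XGFPhigh mean came from 13 cells, 1 of them at 1023 CPM. At least 100 CPM was reached by 2, 7, 32 and 14 cells. XGFP+ constitutive cells were shallower and all sequenced in flow-cell lane 2. With every cell thinned to 100000 reads the shares were 5.68%, 9.60%, 45.3% and 22.3%. Among cells of lane 2 alone they were 6 of 88, 1 of 14, 3 of 16 and 5 of 15, so that the order of XGFPintermediate and XGFPlow cells was the other way round there. In lane 3, which held most cells, they were 10.8% of XGFPhigh, 50.9% of XGFPintermediate and 26.4% of XGFPlow cells.

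Zglp1, upstream of the oogenic programme, showed a similar contrast at lower levels. It had a read in 10.2% (4.78–18.5) of XGFP+ constitutive and 12.8% (7.497–19.95) of XGFPhigh cells, and in 30.5% (22.6–39.2) of XGFPintermediate and 30.6% (22.5–39.6) of XGFPlow cells. ESCs had one in 2 of 24 cells (8.33%, 1.03–26.997), and this interval covers the shares of the first 2 populations. Reads summed over all cells gave 1.69 CPM (exact Poisson interval 1.26–2.21) in XGFP+ constitutive and 4.51 CPM (4.07–4.99) in XGFPhigh cells, against 0.461 CPM (0.238–0.806) in ESCs. They came from 9, 16 and 2 cells. As for Gm4969, the intervals are too narrow for amplified reads and ESCs were in another lane, so these sums do not settle a difference from ESCs. Mean levels per cell were 1.598, 3.58, 13.6 and 9.53 CPM. After thinning, the shares were 7.95%, 8.80%, 26.6% and 24.0%, and in lane 2 the XGFPlow share was 1 of 15 cells. The single-cell counts carry the same uncertainty from Gm49373 as the bulk counts.

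The DM-domain genes differed from each other. Dmrt1 had a read in 80.7% (70.9–88.3), 79.2% (71.03–85.9), 73.4% (64.9–80.9) and 80.2% (71.9–86.9) of XGFP+ constitutive, XGFPhigh, XGFPintermediate and XGFPlow cells, and in 6 of 24 ESCs. These intervals overlapped, while median levels were 25.2, 21.2, 45.3 and 51.6 CPM. At least 100 CPM was reached by 6, 6, 22 and 30 cells (6.82%, 4.80%, 17.2% and 24.8%). Dmrtb1 had a read in 22.7% (14.5–32.9), 30.4% (22.5–39.3), 46.9% (38.003–55.9) and 48.8% (39.6–58.01) of cells. Of 24 ESCs, 0 had a read, and the upper end of the exact interval is 14.2%. Its mean level was 2.99, 3.89, 14.2 and 19.6 CPM. Thinned shares were 18.2%, 20.8%, 39.8% and 39.7%, and in the few lane 2 cells the share was 6 of 14 in XGFPhigh and 4 of 16 in XGFPintermediate cells.

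Ythdc2 was found in fewer XGFPlow than XGFPhigh cells, with intervals that did not overlap. Under the limit on Dazl the shares were 56% and 74.6%, and the intervals overlapped. It had a read in 84.1% (74.8–91.02) of XGFP+ constitutive, 76% (67.5–83.2) of XGFPhigh, 72.7% (64.1–80.2) of XGFPintermediate and 54.5% (45.2–63.6) of XGFPlow cells, and in 58.3% of ESCs (36.6–77.9). Thinned shares were 64.8%, 54.4%, 62.5% and 41.3%, and 39.1% in ESCs. Mean levels were 19.6, 19.8, 37.6 and 18.4 CPM. Tex14 was widespread, with a read in 93.2% (85.7–97.5), 88% (80.98–93.1), 89.8% (83.3–94.5) and 78.5% (70.1–85.5) of cells. Its medians had the same order as those of Stra8, at 42.9, 27.97, 110 and 63.6 CPM, and it reached at least 100 CPM in 8, 11, 70 and 34 cells (9.09%, 8.80%, 54.7% and 28.1%). ESCs had a read of Tex14 in 12 of 24 cells, at a median of 1.23 CPM, and thinned to the same depth in 17.4%.

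**Figure D4:**
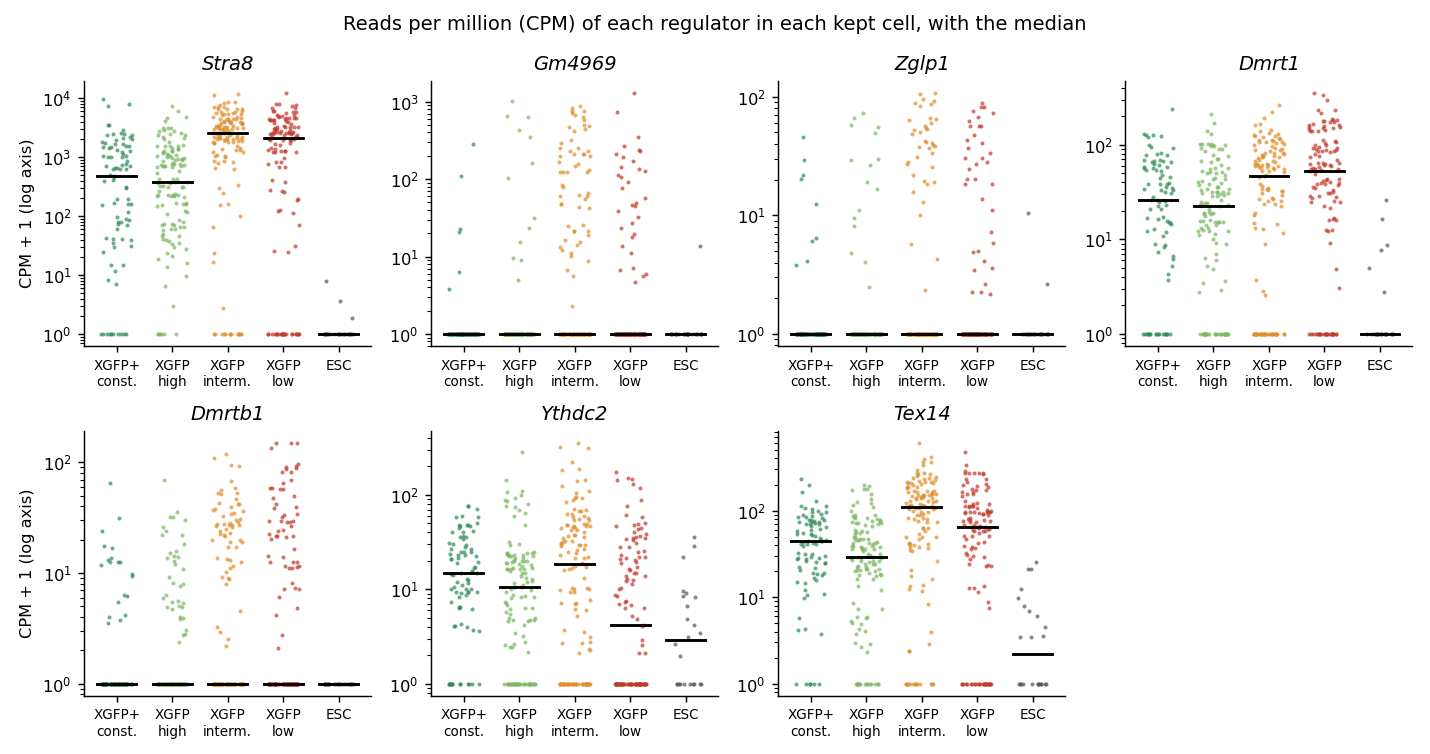
CPM plus 1 of each gene in every kept cell, on a log axis, with 1 column of points per population and the median as a line. Stra8 medians are 488 and 376 CPM in XGFP+ constitutive and XGFPhigh cells and 2554 and 2149 CPM in XGFPintermediate and XGFPlow cells, and Gm4969, Zglp1 and Dmrtb1 have medians of 0 with a tail of positive cells.

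Set against XGFPhigh cells, mean levels in XGFPintermediate cells were 2-fold or more higher for 5 of 7 genes, where 17% of 12429 genes were, and 2-fold or more lower for 0 of 7, where 8.04% of genes were. The folds were 3.80 for Zglp1, 3.65 for Dmrtb1, 3.58 for Gm4969, 3.25 for Stra8 and 2.87 for Tex14, with 1.90 for Ythdc2 and 1.57 for Dmrt1. In XGFPlow cells 16.6% of genes were 2-fold or more higher than in XGFPhigh cells, and so were Dmrtb1 (5.04), Stra8 (2.66), Zglp1 (2.66), Dmrt1 (2.14) and Tex14 (2.00). Gm4969 was at 1.46 and Ythdc2 at 0.928, and 0 of 7 were 2-fold or more lower, where 6.83% of genes were. From XGFPintermediate to XGFPlow cells 5.39% of genes were 2-fold or more lower, among them Gm4969 (2.46-fold) and Ythdc2 (2.04-fold), and none of the 7 was among the 6.22% that were 2-fold or more higher. Constitutive XGFP+ and XGFPhigh cells differed for fewer genes, with 2.94% of all genes 2-fold or more lower and 3.71% higher in the former. Gm4969 (5.57-fold) and Zglp1 (2.24-fold) were among the lower ones, and the other five lay within a factor of 1.3. Compared with XGFPintermediate cells, 16.1% of genes were 2-fold or more lower in XGFP+ constitutive cells, and 9% higher. Lower were Gm4969 (19.9-fold), Zglp1 (8.52-fold), Dmrtb1 (4.76-fold), Stra8 (2.80-fold) and Tex14 (2.38-fold). These folds compare populations without labelled replicates and have no replicate check.

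Reads of Gm4969 were found almost only in cells that also had Stra8, and the reverse did not hold. In XGFP+ constitutive cells 6 had both, 72 Stra8 alone and 0 Gm4969 alone. In XGFPhigh cells 13 had both and 0 Gm4969 alone, in XGFPintermediate cells 57 had both, 58 Stra8 alone and 3 Gm4969 alone, and in XGFPlow cells the numbers were 33, 66 and 0. Stra8 itself was found in 81.8% or more of the cells of each population. All cells with Gm4969 in the rOvary populations also had Dazl (6, 13, 60 and 33 cells). Ddx4, a germ cell RNA helicase, was found in 5 of 6, 13 of 13, 60 of 60 and 33 of 33 of them, and Sycp3, an axis protein of meiotic chromosomes, in 4 of 6, 12 of 13, 60 of 60 and 32 of 33. Over all kept cells Ddx4 had a read in 61.4%, 68%, 89.8% and 76.9%, and Sycp3 in 59.1%, 78.4%, 87.5% and 67.8%, with 29.2% and 79.2% in ESCs. All 7 genes together were found in 1, 1, 13 and 9 cells, and none of them in 2, 0, 5 and 9 cells. The median cell had 4, 4, 5 and 4 of the 7 genes, and the median ESC 2.

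**Figure D5:**
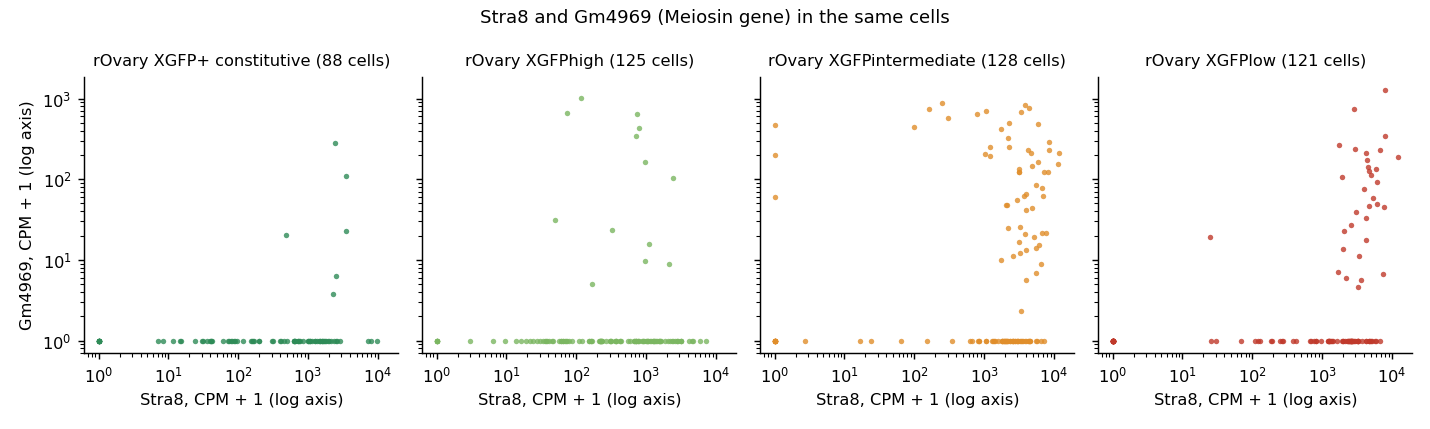
CPM plus 1 of Stra8 (x) and Gm4969 (y) on log axes, 1 point per kept cell, in 1 panel for each rOvary population. Cells off both axes have reads of both genes, which is so for 57 XGFPintermediate and 33 XGFPlow cells and Gm4969 alone in 3 cells of all panels.

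Rank correlations over the cells of 1 population describe how the genes ran together. The cells share a library preparation and mostly a lane, values are sparse, and no gene's correlation with total reads was beyond 0.20 in size. In XGFPintermediate cells Gm4969 ran most strongly, of the genes looked at, with Meioc (Spearman rho 0.82), Sycp3 (0.75), Sycp1 (0.75), Ddx4 (0.70) and Dazl (0.69), and against Dppa3 (−0.61) and Nanog (−0.48), genes of the earlier germ cell state. With Stra8 it had a rho of 0.27 in these cells and of 0.53 in XGFPlow cells. The rho with Meioc was lower in the other populations, at 0.58 in XGFPlow, 0.39 in XGFPhigh and 0.21 in XGFP+ constitutive cells, the last 2 of which had few positive cells.

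Stra8 ran most steadily with Rec8, the meiotic cohesin subunit, at 0.57, 0.51, 0.64 and 0.54 in XGFP+ constitutive, XGFPhigh, XGFPintermediate and XGFPlow cells. Its rho with Nanog was −0.56, −0.46, −0.31 and −0.31, and with Dmrt1 it was 0.49, 0.35, 0.27 and 0.44. Part of the cells lay below the study's limit on Dazl. In cells that passed it, Gm4969 was found in 7.89%, 11.02%, 51.7% and 36.3% of cells. There the rho of Stra8 with Gm4969 was 0.33, 0.06, 0.16 and 0.47, that of Stra8 with Dmrt1 was 0.48, 0.37, 0.12 and 0.15, and that with Nanog −0.78, −0.51, −0.44 and −0.62. Dmrt1 and Gm4969 had a rho of 0.14, −0.23, −0.41 and −0.04 under this limit. In XGFPintermediate cells Dmrt1 was at −0.52 with Sycp3 and −0.56 with Prdm9, which marks sites of recombination, but in XGFPlow cells these values were −0.11 and −0.01. With Rec8 it was at 0.46 and 0.35. Ythdc2 in XGFPintermediate cells ran with Sycp3 (0.61) and Meioc (0.57) and against Dmrt1 (−0.29), over all kept cells. Dmrtb1 ran with Rec8 in XGFPintermediate (0.53) and XGFPlow cells (0.51).

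Over the 374 cells from XGFP− PGCLCs, pooled from 3 populations that differ in level, the genes nearest to Stra8 were Tuba3a (Spearman rho 0.67), Minos1 (0.64), Rec8 (0.64), Atp5f1 (0.62) and Fkbp6 (0.62). For Gm4969 they were Tex101 (0.74), Smc1b (0.72), Dmrtc2 (0.71), Tex12 (0.71) and 4930524B15Rik (0.70), of which Smc1b and Tex12 encode a meiotic cohesin and a synaptonemal complex protein. Tex14 was nearest to Stk31 (0.58), Smc1b (0.55), Hells (0.53), Ddx4 (0.53) and Zcwpw1 (0.52), and Dmrtb1 to Tmem18 (0.51), Stra8 (0.51), Maged1 (0.51), Bckdk (0.50) and Rec8 (0.49). Zglp1, Dmrt1 and Ythdc2 had weaker neighbours. Those of Zglp1 were Spaca1 (0.43), Fkbp6 (0.39), Mael (0.38), Syce1 (0.36) and Sycp1 (0.36). Dmrt1 was nearest to Prtg (0.47), Gsr (0.47), Spint2 (0.47), Chmp1a (0.46) and Plcg2 (0.46), and Ythdc2 to 2310035C23Rik (0.42), Naa15 (0.41), Smarca5 (0.40), Tex15 (0.40) and Boll (0.39).

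The pathway lists were counted in the same cells. A read in at least 10% of cells was found for 19, 19, 20 and 20 of 20 upstream and partner factors and for 27, 26, 29 and 27 of 29 meiotic prophase genes, in the order of XGFP+ constitutive, XGFPhigh, XGFPintermediate and XGFPlow cells. In ESCs it was 13 of 20 and 20 of 29. The share of all genes that passed was 75.5%, 75.4%, 74.4% and 73% in the rOvary populations and 72% in ESCs. The median over the prophase genes of their mean level was 17.8, 34.1, 103.04 and 46.8 CPM, against 2.18 CPM in ESCs. Mean levels of Sycp3 were 17.8, 200.4, 465 and 113.5 CPM, and those of Smc1b 167, 269.8, 1109.6 and 574 CPM, so that both were highest in XGFPintermediate cells, as were Stra8, Gm4969, Zglp1, Ythdc2 and Tex14. The other members, Dmrt1 and Dmrtb1, had their highest mean in XGFPlow cells. All 15 repressors were found in every population and in ESCs, and all 8 bridge genes in the rOvary populations.

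Markers of the somatic cells that were added to rOvaries were measured in the same cells. Of 14 markers of female gonad and mesonephros, 5, 5, 6 and 3 had a read in at least 10% of cells. Their summed level had a median of 65.1, 60.03, 36.2 and 26.7 CPM, with a highest cell at 317, 449, 9143 and 3063 CPM. In ESCs, which had no somatic cells added, 3 passed and the median was 46.6 CPM, so the medians do not measure carried-over somatic cells. The list also holds Pecam1 (CD31), for which the added somatic cells were sorted as negative. At 0 were Emx2, Gata4, Foxl2 and Tcf21 in XGFP+ constitutive cells, Nr5a1, Emx2 and Tcf21 in XGFPhigh cells, and Lhx9 in XGFPintermediate and XGFPlow cells. Their part in the levels of the 7 genes was not tested. No read of Stra8 or Dazl was found in 3 XGFP+ constitutive, 1 XGFPhigh, 10 XGFPintermediate and 19 XGFPlow cells.

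The X-linked allelic ratio, the mean fraction of Xmus reads over 219 genes per cell, gives a readout beside the reporter. Its median was 0.477 in 85 XGFP+ constitutive, 0.473 in 125 XGFPhigh, 0.338 in XGFPintermediate and 0.299 in 88 XGFPlow cells with values. Within XGFPintermediate cells Stra8 had a Spearman rho of 0.36 and Gm4969 of 0.33 with this ratio, and within XGFPlow cells 0.50 and 0.39. Tex14 (0.41), Dmrtb1 (0.39) and Dmrt1 (0.37) had like values in XGFPlow cells, where the number of X genes measured per cell also ran with the ratio (0.40). Among cells that passed the limit on Dazl, the rho of Stra8 was 0.30 in XGFPintermediate and 0.22 in XGFPlow cells and that of Gm4969 was 0.30 and 0.27, with 0.06 and 0.18 for the number of X genes measured. In XGFPhigh cells Gm4969 had a rho of −0.31, which rests on 13 cells with a read.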

How the data were processed

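Per the file headers and methods, the authors made the bulk values, a normalized signal, from read counts per gene, each divided by a DESeq2 size factor per library, after STAR alignment to mm10 with strain SNPs masked, allelic (WASP) filtering and HTSeq 0.6.1 counting. 238 of 16335 genes have no name in GENCODE vM21, and 4 columns of other samples were not used. Whole reads were recovered from the bulk values (100% of values within 0.01 of a whole read). Single-cell values are read counts that the authors deposited unscaled, from full-length SMART-seq libraries of 552 wells, without unique molecular identifiers. The X-linked allelic fraction per gene and cell was made by the authors, for 219 genes and 440 cells, without read numbers. No doublet caller was run, since 1 cell was sorted per well. The labels and the paper differ on how many PGCLCs went into an rOvary.

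Bulk groups were compared with limma 3.58.1 (R 4.3.3) on log2(normalized count + 1), with all 16 libraries in 1 model, genes with a mean above 10 (16281) and Benjamini-Hochberg FDR below 0.001. A fold change on this scale understates changes of low genes. Alternatives were edgeR 4.0.16 and DESeq2 1.42.0 on recovered reads, pseudocounts of 0.5 and 10, a mean above 100, FDR below 0.05, quantile normalization, the compared groups alone, the replicate block and leaving out each library. The limma fit and the rank correlations were tested on simulated data. Same-numbered XGFP+ and XGFP− libraries deviated together across genes (r of 0.253, 0.135, 0.200 and 0.307). Their numbers were therefore taken to pair them, from the data and not from the labels. The means for other numbers (−0.0748, −0.0395, −0.0694 and −0.114) follow from centring each gene within its group and are no separate evidence. A cell needed 4000 genes or more, 10000 reads or more and a mitochondrial share of 5% or less, and no 2 kept cells were identical. The study's limit on Dazl (natural-log normalized value above 1) was an alternative, as were thinning to 100000 reads, at least 5 reads for a detected gene, no cell filter, lane 2 alone and, added after seeing the data, lane 3 alone and rank correlations under the Dazl limit.

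The 7 genes and the lists were chosen with earlier results of these data known. Every member is named. Of each list, at most 4 called genes with the largest change per comparison are named, and in single cells those with the highest mean level. Neighbours are the 3 genes of highest Pearson r in bulk and the 5 of highest Spearman rho among genes with a read in at least 20% of cells. Meioc is listed under an older symbol in the single-cell table. Ddx4, Sycp3, Nanog, Dppa3 and Prdm9 were looked at beside the members as genes of known stages. Sequences are those of RefSeq on GRCm38.p6.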

Additional observations from a re-analysis of the deposited data

Results flagged for a closer look

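In 23 sets of 4 libraries (6 genes in 4 groups, without the set that is at 0 throughout), the highest or lowest library was compared with the others by Dixon's ratio of gap to range against its 95% limit, which chance passes in about 1 of 20 sets. In 2 sets a library stood apart, both of Gm4969. The value of 30.5 in XGFP+ PGCLC replicate 4 (ratio 0.874) lay above 19.95 to 21.3 in the other libraries. The value of 25.1 in XGFP− PGCLC replicate 1 (ratio 0.836) lay above 7.21 to 10.2. Without XGFP− replicate 1 the log2 fold change of Gm4969 between XGFP− PGCLCs and ESCs was −0.074, against 0.30 with it, and neither value passed the test.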

How the results depend on the processing

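Of 576 values with 1 library left out, 564 kept their direction and side of the threshold, 6 lost and 4 gained a call and 2 reversed. Of 342 values under other settings, 321 kept both, 1 lost and 20 gained a call. The genes called numbered 2 when any library was left out for EpiLCs against ESCs, where 7112 to 7776 of all 16281 genes were called. Against EpiLCs they numbered 5 for XGFP+ (8738 to 9439 of all genes) and for XGFP− PGCLCs (9423 to 10164). Against ESCs they numbered 2 to 3 for XGFP+ (7412 to 8113 of all genes) and 3 to 4 for XGFP− PGCLCs (9029 to 9678). For XGFP− against XGFP+ PGCLCs they numbered 0 to 1, where 3078 to 4018 of all genes were called. In the last, Dmrtb1 was called without XGFP+ replicate 2 (3078 of all genes), Zglp1 without replicate 3 (3590) and Ythdc2 without replicate 4 (3281). The reversed values, none of them called, for XGFP− PGCLCs against ESCs, were Gm4969 at −0.074 without XGFP− replicate 1 (to 0.53 without ESC replicate 4) and Dmrt1 at −0.072 without ESC replicate 4 (to 0.31 without ESC replicate 2), and, under the Dazl limit, the rho of Dmrt1 with Dazl in XGFPlow cells at −0.0095 (0.34 without it). Turning was checked for rhos of Stra8, Gm4969 and Dmrt1 with each other and with Dazl, Ddx4, Meioc, Sycp3, Nanog, Dppa3 and Rec8. Among these, the rho of Dmrt1 with Dazl was the 1 of 0.30 or more in size to turn. Weaker ones turned as well, such as Dmrt1 with Sycp3 in XGFPlow cells (from 0.22 to −0.11) and Ythdc2 with the allelic ratio in XGFPintermediate cells (from 0.03 to −0.03). With a mean above 100, 3 of the genes were left, among 11702 in all. Of the 3, 0 were called in EpiLCs against ESCs, where 6028 of all genes were. Against EpiLCs 2 were called in XGFP+ (7398 of all genes) and 2 in XGFP− PGCLCs (7931). In XGFP− PGCLCs against ESCs 1 was called (7575 of all genes). At FDR 0.05, 5 of 6 were called in EpiLCs against ESCs, where 10951 of all 16281 genes were. In XGFP+ PGCLCs against ESCs 6 were called (11385 of all genes). In XGFP− against XGFP+ PGCLCs 5 were called, and over all genes 7914 in place of 3873. For XGFP− against XGFP+ PGCLCs, the 2 groups alone gave 1 call (Dmrt1), with 3671 over all genes, and DESeq2 gave 2, with 5051 over all genes. The Dmrt1 call in XGFP+ PGCLCs against ESCs was lost under quantile normalization (limma, FDR 0.00133).

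The fit with the replicate number as a block gave 2 calls in XGFP− against XGFP+ PGCLCs, in place of 0. Over all genes it gave 4170, in place of 3873. It also called Ythdc2 in XGFP− PGCLCs against ESCs, with 9931 of all genes in place of 9671. Same-numbered libraries deviated together less there (r of 0.0327 to 0.102).

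In single cells, the number of genes found in at least 10% of cells stayed within 1.5 times under every setting. Shares outside the exact interval of the main value numbered 8 of 28 under the Dazl limit, 10 of 35 with 5 reads, 8 of 35 after thinning and 10 of 28 in lane 2. ESCs gave no value under the Dazl limit (0 cells passed) or in lane 2. Low counts limit Gm4969, Zglp1 and Dmrtb1, and the lack of labelled replicates limits all population contrasts.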
